A study of Homo sapiens with 18 samples.

Results

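The genes described here are 6 regulators of G protein signalling, RGS1, RGS2, RGS13, RGS14, RGS16 and RGS19, in the human Burkitt lymphoma lines DG75 and Raji. The 6 genes were listed with earlier results of these data known, so counts of members are descriptions. Every probe annotated to a listed gene was then taken by symbol. This gave 6 probes, 1 for each gene, among 49576 probes on the array. All 6 genes were among the 10697 genes tested, since each probe was detected (detection p under 0.01) on at least 3 of 18 arrays. RGS1, RGS2, RGS13, RGS16 and RGS19 were detected on 18 of 18 arrays, and RGS14 was detected on 11 of 18.

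The study measured total RNA on Illumina bead arrays and addressed the NF-κB network of both lines. Its 6 groups of 3 arrays each were DG75 cells given 75 µM TPCK for 1 h, DG75 cells given 50 µM Bay-11 for 1 h, DG75 control cells, Raji cells given 75 µM TPCK for 1 h, Raji cells given 50 µM Bay-11 for 1 h, and Raji control cells. Control cells were incubated without either compound, and a vehicle is not given in the labels. The series text names TPCK for Raji alone, whereas sample titles and column names give it for DG75 as well. Raji carries Epstein-Barr virus and DG75 is negative for it. Both are long-established B cell lines, so a difference between them is a difference between 2 lines. Bay-11 blocks inducible phosphorylation of IκBα, the inhibitor that holds NF-κB in the cytoplasm, and TPCK is a protease inhibitor that also blocks NF-κB activation; both are reactive compounds with other targets. Whether the 3 arrays of a group were grown as separate cultures is not stated, so every p-value reflects variation among these arrays, and that variation may be technical.

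G protein coupled receptors act through heterotrimeric G proteins, whose alpha subunit is active while it holds GTP. RGS proteins bind the active alpha subunit and speed up its GTP hydrolysis, which ends the signal. In B cells they limit the response to chemokines, and germinal centre B cells, the cells that Burkitt lymphoma resembles, are known for RGS1 and RGS13.

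Of the 6 genes, RGS1, RGS13, RGS2 and RGS16 lie on chromosome 1, RGS14 on chromosome 5 and RGS19 on chromosome 20. In the RefSeq annotation RGS1, RGS13 and RGS2 follow each other with 0 other coding genes between them. Promoter windows from 250 bases before to 50 bases after the transcription start were taken from RefSeq (GRCh38.p14), which held all 6 genes. They were searched on both strands for the NF-κB consensus, the AP-1 motif TGANTCA, the CRE motif TGACGTCA and the E-box CACGTG, none of which contains another. The windows of RGS1 and RGS2 are shown, since RGS1 was the member called after a treatment and RGS2 differed between the lines in the other direction; both lie on the plus strand, at chr1:192575523-192575822 for RGS1 and chr1:192808789-192809088 for RGS2. Capitals mark the match to the NF-κB consensus, which begins at position -106 from the start of transcription on the strand of the gene.
RGS1 promoter: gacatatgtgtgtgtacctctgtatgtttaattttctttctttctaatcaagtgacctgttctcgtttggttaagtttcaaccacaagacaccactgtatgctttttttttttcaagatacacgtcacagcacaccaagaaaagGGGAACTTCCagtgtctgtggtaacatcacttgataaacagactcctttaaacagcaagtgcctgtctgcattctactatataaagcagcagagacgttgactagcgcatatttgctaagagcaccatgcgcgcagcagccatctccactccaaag
RGS2 promoter: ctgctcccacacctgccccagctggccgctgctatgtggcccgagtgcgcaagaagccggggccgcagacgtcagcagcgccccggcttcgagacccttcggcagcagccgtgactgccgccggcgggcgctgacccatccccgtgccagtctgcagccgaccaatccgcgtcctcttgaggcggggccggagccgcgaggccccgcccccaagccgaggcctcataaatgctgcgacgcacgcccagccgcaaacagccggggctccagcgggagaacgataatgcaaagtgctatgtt
The RGS1 window, with a GC content of 41.7%, held the NF-κB consensus, which 11.3% of 35116 RefSeq promoters also held. None of the 4 motifs was found in the RGS2 window, which had a GC content of 69.7%. The other match among the members was an E-box at position -223 in the second of 2 windows of RGS19, at chr20:64079469-64079768 on the minus strand, and 7.26% of all promoters held that motif. A match is a description of these letters and no evidence of binding.

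All signals below are log2 values after background correction and quantile normalization, and they can be compared between arrays for a probe but not between probes. The RNA came from whole cultures, so fewer cells with a transcript and less transcript per cell cannot be told apart. All 4 B cell markers with a probe were detected on every array. The germinal centre markers, 3 with a probe, were also detected on every array, with a summed linear signal of 3528 to 4099 in DG75 controls and 1294 to 1645 in Raji controls. The 2 T and NK cell markers with a probe were detected on every Raji array and on no DG75 array. Their summed signal was 306 to 350 in Raji controls and 62.0 to 65.0 in DG75 controls. Each Raji array also detected 1 of 4 fibroblast markers, and every array detected 2 or 3 of 3 myeloid markers. The source of these signals was not tested. Mean raw signal was 208 to 298 in DG75 TPCK, 209.9 to 273 in DG75 Bay-11 and 182 to 235 in DG75 control arrays. In Raji it was 243 to 282 with TPCK, 206 to 256 with Bay-11 and 171 to 202 in controls. Arrays are numbered as in the raw table, where treated arrays carry 1 to 12 and controls 13 to 18. What the numbers mean is not stated, and any effect of that order cannot be told apart from treatment. Array 7 (DG75 TPCK) stood apart with 687 probes detected nowhere else and with 4 of 4 fibroblast and 4 of 4 epithelial markers detected. Their summed signals reached 4326 and 1127 in DG75 TPCK, against highest values of 181 and 121 in DG75 controls. Array 10 (DG75 Bay-11) stood apart with the lowest mean correlation with the other arrays of its group (0.954). Its median deviation from its group mean (0.213) was the highest of the 18 arrays. On it 572 probes detected on every DG75 control array lay over 2 log2 units below the DG75 control mean. That count was made for array 10 alone. The part of these arrays in the results was not tested beyond leaving them out.

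The untreated lines differed in 4 of the 6 RGS genes. RGS2 was higher in DG75, and RGS1, RGS16 and RGS19 were lower in DG75. The test was limma with Benjamini-Hochberg adjustment over all 10697 genes, and a gene was called at an adjusted p under 0.05. The background was large: 38.9% of all genes were called in this comparison, 20.7% higher and 18.2% lower in DG75. Control arrays of the lines did not overlap for the same 4 members and for 55.5% of all genes. The median log2 difference, DG75 minus Raji, was -0.70 over the 6 genes and 0.03 over all genes.

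RGS1, which in B cells dampens migration towards chemokines, had signals of 9.39, 9.35 and 9.13 in DG75 controls, against 11.02, 10.95 and 11.18 in Raji controls. Every Raji control array lay above every DG75 control array. The means were 9.29 ± 0.14 and 11.05 ± 0.12 (SD, n = 3 each), and the log2 difference of -1.76 ± 0.15 (SE) put RGS1 3.39-fold lower in DG75 (limma, adjusted p = 7.45e-08).

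RGS16, a small RGS protein that acts on alpha subunits of the Gi and Gq classes, had signals of 7.44, 7.28 and 7.47 in DG75 controls, against 8.82, 8.84 and 8.73 in Raji controls. Again the lines did not overlap. RGS16 was 2.64-fold lower in DG75, by -1.40 ± 0.17 on the log2 scale (limma, adjusted p = 3.58e-06).

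RGS19, known first as a protein that interacts with Gi class alpha subunits, had signals of 8.22, 8.03 and 8.13 in DG75 controls, against 9.40, 9.38 and 9.41 in Raji controls. The Raji controls had an SD of 0.015 (n = 3) and lay above all DG75 controls. The log2 difference was -1.27 ± 0.20, or 2.41-fold lower in DG75 (limma, adjusted p = 5.97e-05).

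RGS2, which preferentially turns off Gq class alpha subunits, showed the other order. Its signals were 10.65, 10.77 and 10.57 in DG75 controls, against 8.82, 8.60 and 9.13 in Raji controls. The lines did not overlap, and RGS2 was 3.52-fold higher in DG75, by 1.82 ± 0.15 on the log2 scale (limma, adjusted p = 5.39e-08).

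RGS13, known in germinal centre B cells as a brake on responses to the chemokine receptors CXCR4 and CXCR5, did not pass the test. It had signals of 9.36, 9.27 and 9.30 in DG75 controls, against 9.53, 8.78 and 10.03 in Raji controls. The Raji arrays spread on both sides of the DG75 arrays, and the log2 difference of -0.14 had a 95% interval of -0.82 to 0.55 (limma, adjusted p = 0.78). With an interval that wide, similarity of the lines was not shown.

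RGS14, a scaffold that joins an RGS domain to Ras-binding domains and a GoLoco motif, was close to background. Its signals were 5.30, 4.62 and 4.67 in DG75 controls, against 4.53, 5.00 and 4.91 in Raji controls. It was detected on 1 of 3 DG75 control arrays and on 0 of 3 Raji control arrays, so no fold is given between the lines, and the fit gave an adjusted p of 0.884 (limma).

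**Figure D1:**
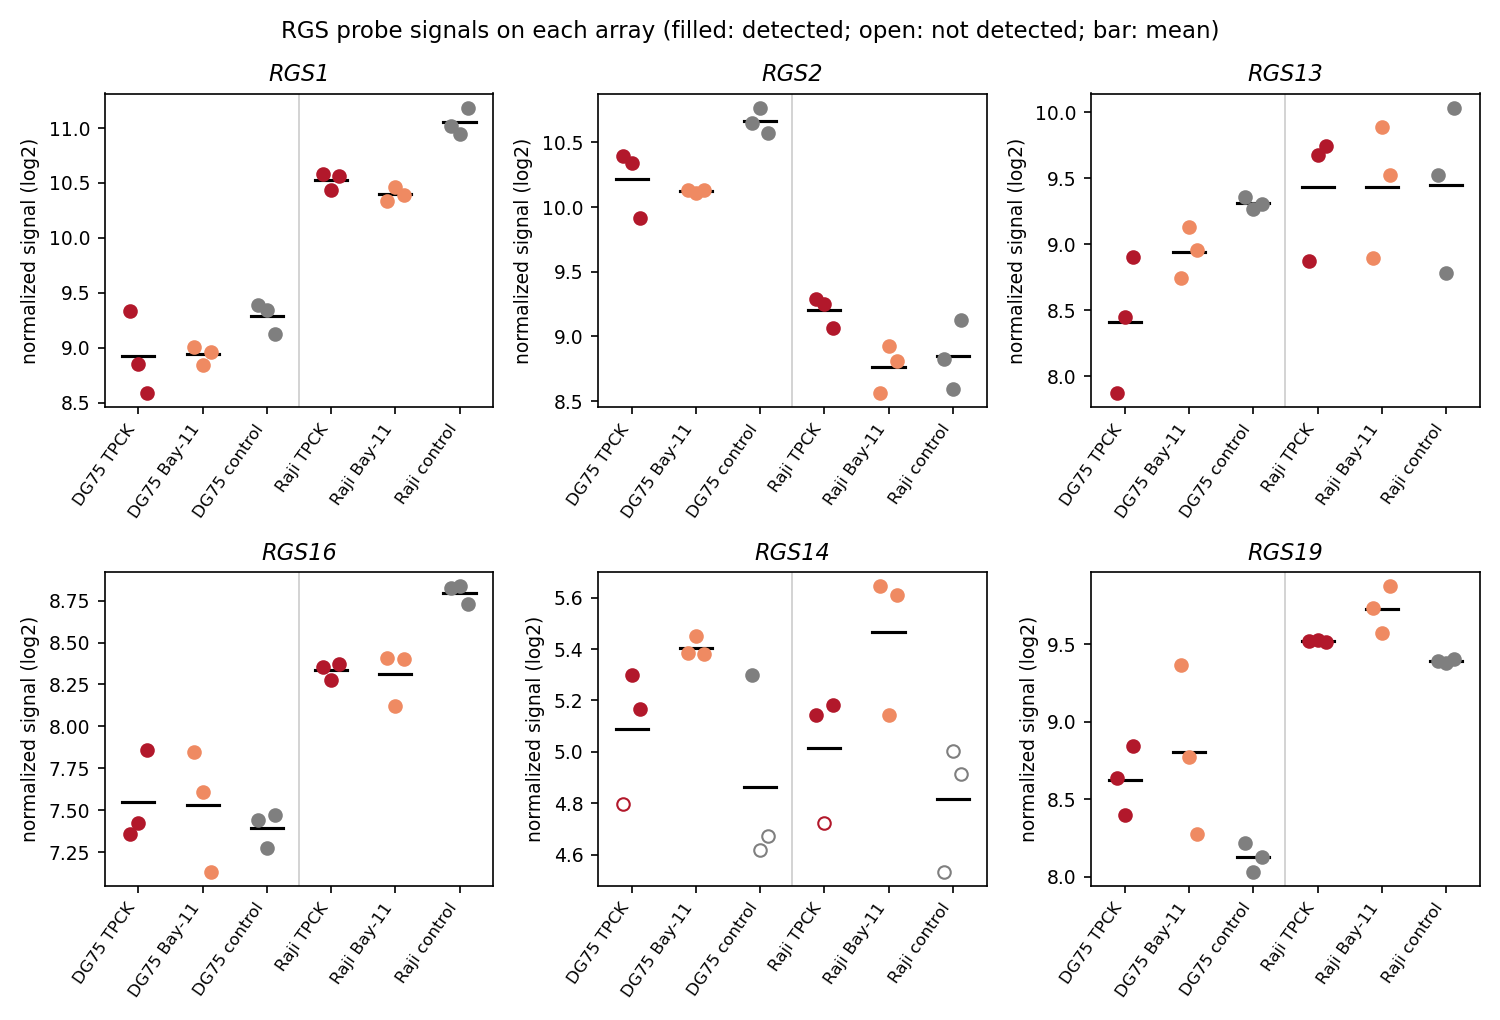
Normalized log2 signal (y axis, a separate scale for each gene) of the 6 RGS probes on each of 18 arrays, by group on the x axis; filled points are detected, open points are not, and bars are group means (n = 3). RGS1, RGS16 and RGS19 are higher on the Raji arrays, RGS2 is higher on the DG75 arrays, and RGS13 and RGS14 overlap between the lines.

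The separation of the lines held across treated arrays too. Over the 9 arrays of each line, RGS1 ranged from 8.59 to 9.39 (median 9.01) in DG75 and from 10.34 to 11.18 (median 10.56) in Raji. RGS16 ranged from 7.13 to 7.86 (median 7.44) in DG75 and from 8.12 to 8.84 (median 8.40) in Raji. RGS2 ranged from 9.92 to 10.77 (median 10.34) in DG75 and from 8.56 to 9.29 (median 8.92) in Raji. None of these ranges met. RGS19 came close, with 8.03 to 9.37 (median 8.40) in DG75, where the top value was array 10, and 9.38 to 9.88 (median 9.52) in Raji. Of all genes tested, 24.8% had no overlap between the 9 DG75 and 9 Raji arrays. Given as a description with no test, the log2 difference of RGS2, DG75 minus Raji, was 1.02 within TPCK, 1.36 within Bay-11 and 1.82 within controls. For RGS16 it was -0.79 within TPCK, -0.78 within Bay-11 and -1.40 within controls. RGS1 differed by -1.60, -1.46 and -1.76 and RGS19 by -0.90, -0.92 and -1.27 in the same order of groups. RGS13 ran the other way, with -1.02, -0.49 and -0.14. For RGS14, which was close to background, the difference was 0.07 within TPCK and -0.06 within Bay-11. No value is given within controls, since its probe was not detected in Raji controls.

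Other parts of the G protein pathway were read from lists of 95 genes, of which 63 had a probe and 50 were tested. Between the untreated lines 6 of the 50 were higher in DG75, 18 were lower and 26 were not called. Of all genes 38.9% were called in this comparison, 20.7% higher and 18.2% lower in DG75. The same shares stand beside each list count of the untreated lines that follows. Among 14 receptors of B cells, 1 was higher in DG75 and 10 were lower, with a median log2 difference of -1.34 (all genes 0.03). CCR7, which guides B cells into lymphoid tissue, was lower in DG75 by -4.63 ± 0.15 on the log2 scale. PTGER4, a receptor for prostaglandin E2, was at least 37.5-fold lower, since its probe was not detected in DG75 controls. P2RY10, a receptor for lysophosphatidylserine, was also called lower, and no fold is given because its probes differed in detection. The probe that was tested was detected on 0 of 3 DG75 and 3 of 3 Raji control arrays. Its other probe was detected on 2 of 3 DG75 and 3 of 3 Raji control arrays, with means of 5.31 and 7.39. Here and below, a bound such as that of PTGER4 sets the mean of the detected group against the lowest signal among detected probes, or the dim probe's own value if higher.

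Among 7 alpha subunits, the direct partners of RGS proteins, 1 was higher in DG75, 2 were lower and 4 were not called, with a median of -0.36. GNA13, a transducer of confining signals in germinal centres, was higher by 1.18 ± 0.23 (limma, adjusted p = 0.000517). Its relative GNA12 was lower by -2.03 ± 0.13 (2.16e-09), and GNAI2, the Gi class subunit through which chemokine receptors act, was lower by -0.76 ± 0.18 (0.00261). Of 10 beta and gamma subunits 3 were lower in DG75 and 7 were not called, with a median of -0.03. GNG7 was at least 4.57-fold lower, being undetected in DG75 controls, and GNGT2 was lower by -1.48 ± 0.15. GNG2 was called lower, but it was detected on 0 of 3 DG75 and 1 of 3 Raji control arrays and has no fold.

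Of 4 receptor kinases and arrestins, GRK5 was higher in DG75 by 0.67 ± 0.16. GRK4 was called lower, but it was detected in neither control group and has no fold. Of 12 effectors and modulators 3 were higher and 2 lower in DG75. PLCB2, a phospholipase C that Gq activates, was undetected in Raji controls and at least 2.29-fold higher in DG75. ADCY9, an adenylyl cyclase that was also undetected in Raji controls, was at least 1.38-fold higher. Of 15 further RGS genes, 6 had a probe and 3 were tested. RGS10 was detected on 18 arrays, RGS12 on 6 and RGS22 on 3, and 0 of the 3 were called in any of the 9 comparisons (limma). The germinal centre marker sums given above also differed between the lines, and their part in these differences was not tested.

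**Figure D2:**
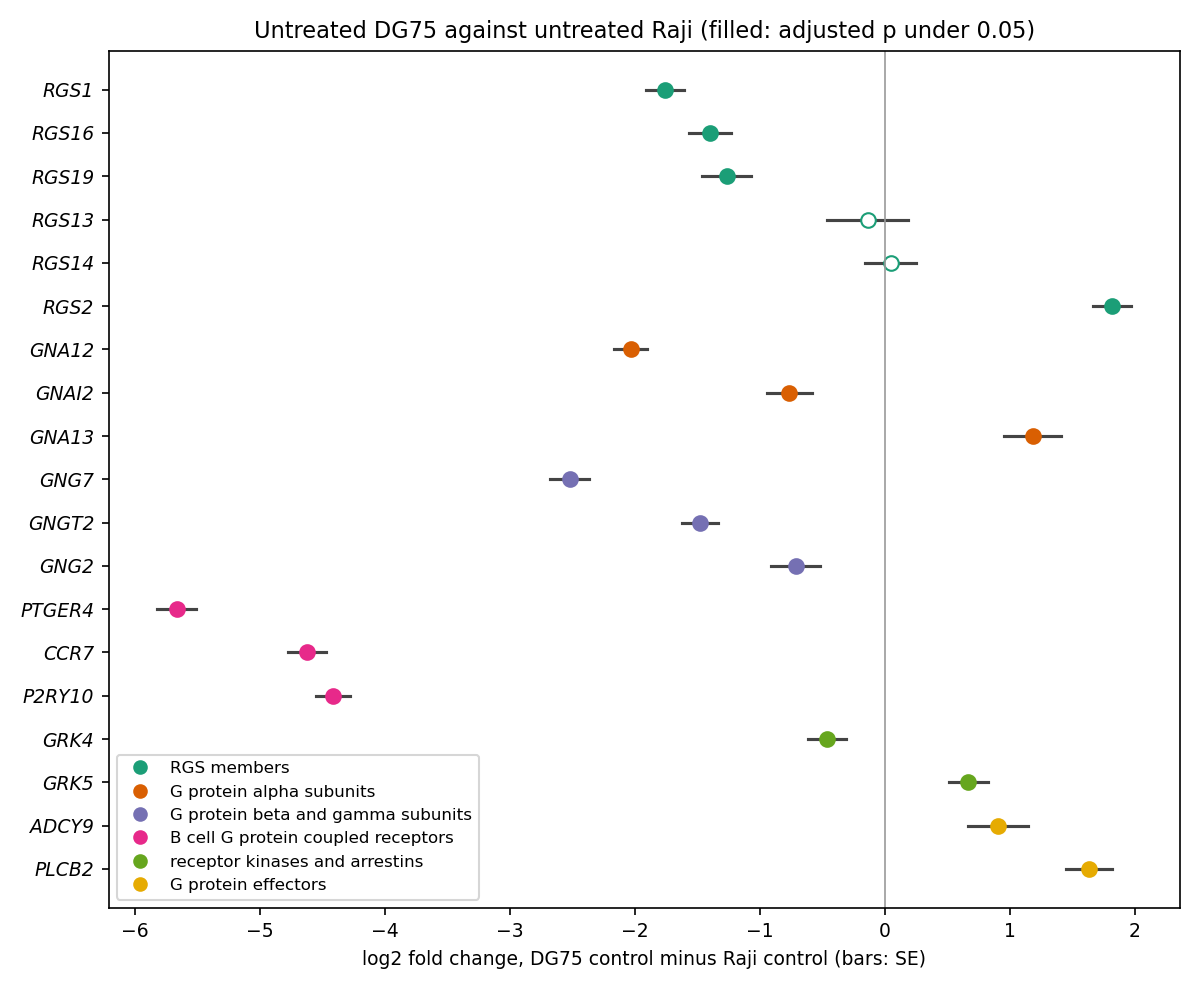
Log2 fold change, DG75 control minus Raji control (x axis), of the 6 RGS genes and of up to 3 called genes per pathway list, chosen by size of change. Points are fitted values and bars their SE (n = 3 arrays each), and other called genes are not drawn. RGS2 lies at 1.82 and RGS1, RGS16 and RGS19 between -1.76 and -1.27; of those plotted, the fitted values of PTGER4, P2RY10, GNG7, GNG2, GRK4, PLCB2, ADCY9 and RGS14 involve a group in which the tested probe was not detected and are not measured folds.

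In Raji, RGS1 fell after Bay-11, and it was the only RGS gene called after any treatment. It was 1 of 6 members, against 1.51% of all genes called in this comparison and 0.626% called lower. Across the 4 comparisons of a compound with control, all members, RGS1 included, shifted by under 1 log2 unit. The widest shift, RGS13 by -0.90 after TPCK in DG75, was not called. Comparisons within a line share their control arrays.

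RGS1 had signals of 10.34, 10.47 and 10.39 in Raji Bay-11 arrays, against 11.02, 10.95 and 11.18 in Raji controls. All 3 Bay-11 arrays lay below all 3 controls. The log2 change was -0.66 ± 0.15, a 1.57-fold fall with a 95% interval of -0.98 to -0.33 (limma, adjusted p = 0.0449). The call was near the threshold. It was lost when any 1 of the 6 arrays compared (4, 5, 6, 16, 17 or 18) was left out, with adjusted p between 0.0572 and 0.208. It was also lost with median centring (adjusted p = 0.0946), with no normalization (0.472) and with no filter on dim probes (0.0514), while its sign stayed negative. A fit of another deposited table with the replicate number as a block lost the call too. Mean raw signal was higher on treated Raji arrays, as given above. Without normalization the median of all genes shifted by 0.32 and RGS1 by -0.28. The gap between RGS1 and the median gene was not tested.

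**Figure D3:**
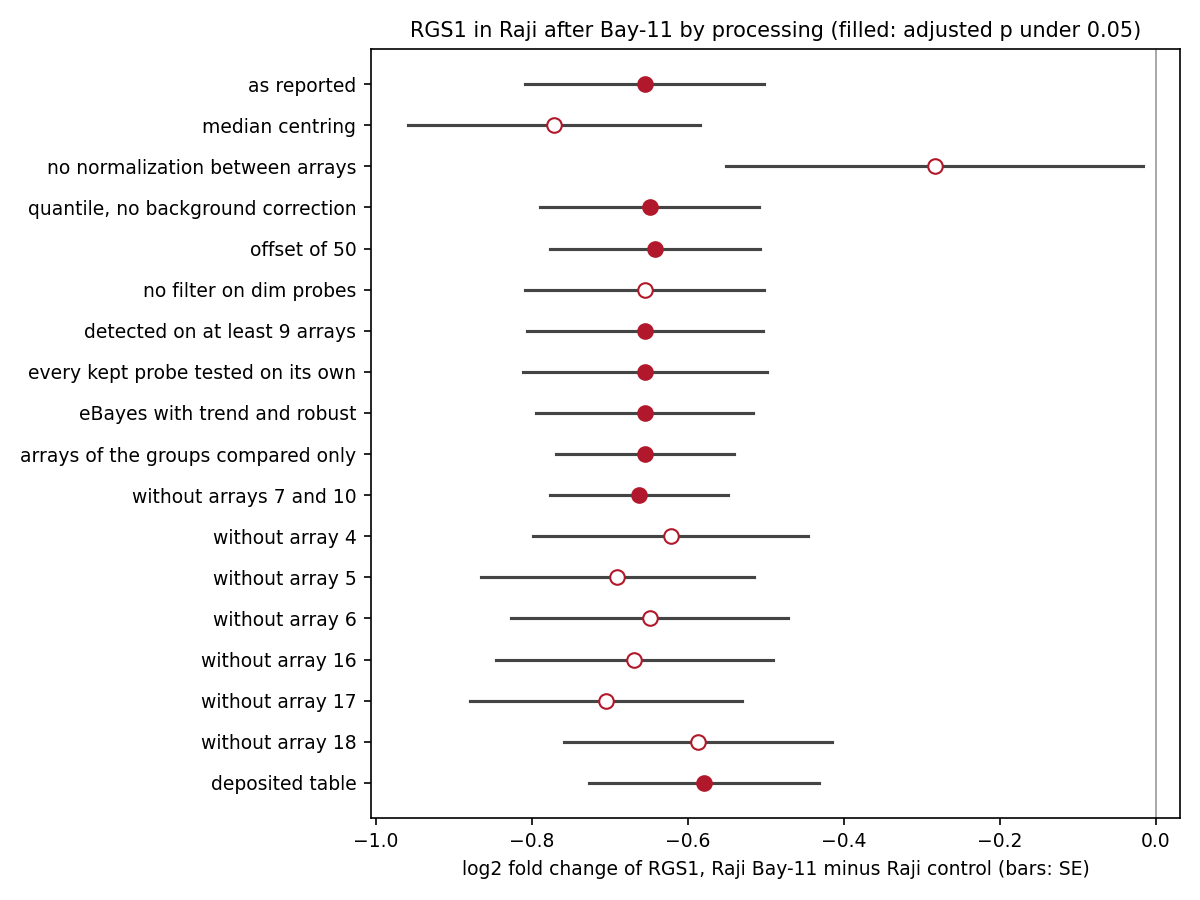
Log2 fold change of RGS1, Raji Bay-11 minus Raji control (x axis; bars are SE), as reported and under other processing choices or with 1 array left out (y axis); filled points have an adjusted p under 0.05. All values lie below 0, from -0.77 with median centring to -0.28 with no normalization, and every point with 1 array left out is open. The fit of the deposited second table with the replicate number as a block, which lost the call, is not drawn.

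After TPCK, RGS1 in Raji had signals of 10.58, 10.43 and 10.56, against 11.02, 10.95 and 11.18 in controls, with no overlap. The log2 difference of -0.53 ± 0.15 had an unadjusted p of 0.00325 and did not pass the adjustment (limma, adjusted p = 0.266). Without arrays 7 and 10, both from DG75, the shared estimate of spread was smaller and the same difference of -0.53 ± 0.11 passed (adjusted p = 0.0474), as did 67 of 10524 genes. Without normalization the value was 0.15, while the median of all genes was 0.58. In DG75, RGS1 had signals of 9.01, 8.85 and 8.96 with Bay-11, against 9.39, 9.35 and 9.13 in controls. Those groups did not overlap, and the log2 difference of -0.35 ± 0.15 did not pass (limma, adjusted p = 0.233). With TPCK its signals were 9.34, 8.86 and 8.59, where array 7 gave the highest and reached into the control range. The difference was -0.36 ± 0.15 (adjusted p = 0.383), and -0.57 ± 0.13 without arrays 7 and 10 (adjusted p = 0.0588). All 4 differences were thus negative after normalization, and those in DG75 turned to 0.08 with Bay-11 and 0.05 with TPCK without normalization, where the medians of all genes were 0.28 and 0.33.

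RGS16 in Raji had signals of 8.41, 8.12 and 8.40 with Bay-11 and 8.35, 8.28 and 8.37 with TPCK, against 8.82, 8.84 and 8.73 in controls. Neither treated group overlapped the controls. The log2 differences were -0.48 ± 0.17 with Bay-11 (limma, adjusted p = 0.147) and -0.46 ± 0.17 with TPCK (0.507), and neither passed. Without normalization they were 0.02 and 0.28, below the shifts of all genes given above. In DG75 the signals were 7.85, 7.61 and 7.13 with Bay-11 and 7.36, 7.42 and 7.86 with TPCK, against 7.44, 7.28 and 7.47 in controls. All 3 DG75 groups overlapped, with differences of 0.14 ± 0.17 (95% interval -0.22 to 0.49) and 0.15 ± 0.17 (-0.20 to 0.51).

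RGS2 in DG75 had signals of 10.13, 10.11 and 10.13 with Bay-11, against 10.65, 10.77 and 10.57 in controls. The Bay-11 arrays lay together below the controls, with an SD of 0.014 (n = 3). The difference of -0.54 ± 0.15 had an unadjusted p of 0.00284 and did not pass (limma, adjusted p = 0.105). With TPCK the DG75 signals were 10.40, 10.34 and 9.92, also below all controls, and the difference was -0.45 ± 0.15 (adjusted p = 0.269). In Raji the signals were 9.29, 9.25 and 9.07 with TPCK and 8.56, 8.92 and 8.81 with Bay-11, against 8.82, 8.60 and 9.13 in controls. Both treated groups overlapped the Raji controls, with differences of 0.35 ± 0.15 for TPCK (adjusted p = 0.66) and -0.08 ± 0.15 for Bay-11 (0.822). Without normalization the TPCK difference in Raji was 1.06 and passed (adjusted p = 0.0139), against a median of 0.58 for all genes, of which 5346 of 10697 passed and 5344 were higher.

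RGS19 stood higher on treated arrays in both lines, by amounts that did not pass the test. Its signals in DG75 were 9.37, 8.77 and 8.28 with Bay-11 and 8.64, 8.40 and 8.84 with TPCK, against 8.22, 8.03 and 8.13 in controls. Neither treated group overlapped the controls, and array 10 was the highest. The differences were 0.68 ± 0.20 with Bay-11 (unadjusted p = 0.00309; limma, adjusted p = 0.106) and 0.50 ± 0.20 with TPCK (0.335). The Bay-11 value depended on single arrays: it was 0.39 ± 0.15 without array 10 (adjusted p = 0.399) and 0.94 ± 0.17 without array 12, where it passed (adjusted p = 0.00955) along with 1048 of 10675 genes, against 66 as reported. In Raji the signals were 9.73, 9.58 and 9.88 with Bay-11 and 9.52, 9.53 and 9.52 with TPCK, against 9.40, 9.38 and 9.41 in controls. The groups were narrow and did not overlap, with differences of 0.34 ± 0.20 (adjusted p = 0.37) and 0.13 ± 0.20 (0.999). The SE pools the spread of all 6 groups, where the SD was 0.54 in DG75 Bay-11. It was 0.149 in Raji Bay-11, 0.005 in Raji TPCK and 0.015 in Raji controls. A fit of the compared groups alone called neither difference. Without normalization the TPCK difference in Raji was 0.84 and passed (adjusted p = 0.0345), against the same median of 0.58 and the same 5346 genes passing.

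RGS13 in DG75 had signals of 7.87, 8.45 and 8.90 with TPCK, against 9.36, 9.27 and 9.30 in controls. The TPCK arrays lay below the controls and far apart from each other, with array 7 the lowest. The difference was -0.90 ± 0.32 (unadjusted p = 0.0131; limma, adjusted p = 0.293), and -0.63 ± 0.34 without arrays 7 and 10 (0.437). With Bay-11 the DG75 signals were 8.74, 9.13 and 8.95, again below the controls, and the difference was -0.37 ± 0.32 (adjusted p = 0.569). In Raji the signals were 8.87, 9.68 and 9.75 with TPCK and 8.90, 9.89 and 9.52 with Bay-11, against 9.53, 8.78 and 10.03 in controls. All 3 Raji groups overlapped, and each held 1 array well below its others. Differences of -0.02 with TPCK and -0.01 with Bay-11 had 95% intervals of -0.70 to 0.67 for both.

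RGS14 was detected on all 3 Bay-11 arrays of each line. Its signals in Raji were 5.64, 5.14 and 5.61 with Bay-11, against 4.53, 5.00 and 4.91 in controls, none of which was detected. The Bay-11 arrays lay above the controls, and the bound was at least 1.28-fold higher, without passing the test (limma, adjusted p = 0.116). In DG75 the signals were 5.39, 5.45 and 5.38 with Bay-11, against 5.30, 4.62 and 4.67 in controls. The probe was detected on 1 of 3 of these DG75 controls. The groups did not overlap, and the fitted difference, which rests partly on undetected values, was 0.54 ± 0.20 (limma, adjusted p = 0.186). With TPCK the signals were 4.80, 5.30 and 5.17 in DG75 and 5.14, 4.72 and 5.18 in Raji, and both groups overlapped their controls. Of these 6 arrays 4 detected the probe.

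**Figure D4:**
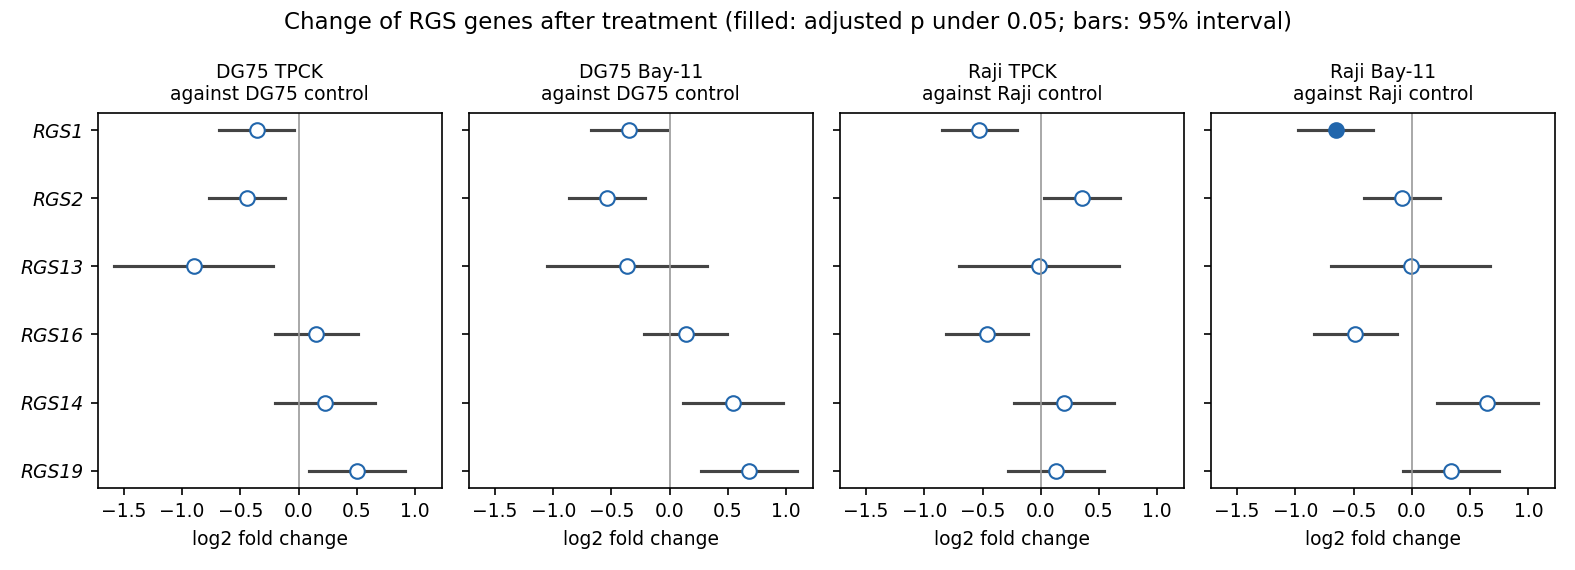
Log2 fold change of each RGS gene, treated minus control (x axis), for TPCK and Bay-11 in DG75 and in Raji; points are limma estimates from 3 arrays a group and bars are 95% intervals. The filled point, RGS1 in Raji after Bay-11 at -0.66, is the member called. The RGS14 points in Raji rest on a control group in which the probe was not detected. Those in DG75 rest on a control group in which it was detected on 1 of 3 arrays.

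Counted together, 0 of 6 members were called after TPCK in Raji, after Bay-11 in DG75 or after TPCK in DG75 (limma), where 0.439%, 0.617% and 0.495% of all genes were called. At an unadjusted p under 0.05 the members numbered 3 after Bay-11 and 3 after TPCK in Raji, and 4 after Bay-11 and 4 after TPCK in DG75. Over all genes the same threshold gave 18.8% and 6.61% in Raji, and 18.9% and 11.5% in DG75. Treated and control arrays did not overlap for 4 members after Bay-11 and 3 after TPCK in Raji, and for 5 after Bay-11 and 3 after TPCK in DG75. Of all genes 31% and 15.9% did not overlap in Raji, and 19.3% and 17.5% did not in DG75. The members' median log2 differences were -0.05 and 0.06 in Raji and -0.11 and -0.10 in DG75, in the same order, against 0.01 and 0.01, and 0.05 and 0.02, over all genes. Since the genes were listed with earlier results known, their counts beside the shares of all genes are a description only.

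The response of the lines was compared directly as the treatment difference in DG75 minus that in Raji. For both compounds 0 of 6 members and 0% of all genes were called (limma), while 1 member for Bay-11 and 2 for TPCK had an unadjusted p under 0.05, as did 6.47% and 5.56% of all genes. RGS16 gave 0.62 ± 0.24 for Bay-11 (unadjusted p = 0.0182; adjusted p = 0.707). RGS2 gave -0.80 ± 0.22 for TPCK (unadjusted p = 0.00201; adjusted p = 0.692), since its TPCK arrays stood below controls in DG75 and above the control mean in Raji. RGS1, called in Raji after Bay-11 and not in DG75, gave 0.31 (adjusted p = 0.811), so a difference between the lines was not shown.

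The compounds were also set against each other within a line, at doses that differ. In Raji 0 of 6 members were called for TPCK against Bay-11 (limma, 0.271% of all genes). At an unadjusted p under 0.05 there were 2 members, beside 13.4% of all genes. RGS2 was 9.20 ± 0.12 with TPCK and 8.77 ± 0.19 with Bay-11 (SD, n = 3 each), a log2 difference of 0.43 ± 0.15 (adjusted p = 0.255) with no overlap. RGS19 also did not overlap, and 25.8% of all genes did not. In DG75 0 of 6 were called (0.187% of all genes) and 0 had an unadjusted p under 0.05, beside 10.6% of all genes. The widest value there was RGS13, with -0.53 ± 0.32 (adjusted p = 0.519), and RGS14 was the member without overlap, as were 9.92% of all genes.

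Few listed pathway genes were called after treatment. Of the 50 listed genes tested, 1 fell after Bay-11 in Raji: P2RY10, by 0.61 ± 0.14 on the log2 scale (limma, adjusted p = 0.0414), where 1.51% of all genes were called. In DG75, 1 gene fell after each compound, GPR18, a lipid-sensing receptor of lymphocytes. It averaged 5.81 with Bay-11 against 6.74 in controls (log2 change -0.93 ± 0.18, adjusted p = 0.028), and 5.76 with TPCK against the same controls (-0.98 ± 0.18, adjusted p = 0.0188). Of all genes 0.617% and 0.495% were called in those comparisons. After TPCK in Raji 0 of the 50 were called (limma; 0.439% of all genes).

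The members also differed in how they varied among replicate arrays. The residual SD was 0.181 for RGS1, 0.182 for RGS2, 0.205 for RGS16, 0.251 for RGS19 and 0.264 for RGS14, around the median gene's 0.226. RGS13 had 0.445, at the 95.2 percentile of all genes. The range of the 6 group means was 2.12 for RGS1, 1.90 for RGS2, 1.60 for RGS19 and 1.40 for RGS16, against 0.68 for the median gene. It was 1.04 for RGS13 and 0.65 for RGS14.

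The order of group means showed the same division. RGS1 ran from Raji control (11.05) through Raji TPCK (10.52), Raji Bay-11 (10.40) and DG75 control (9.29) to DG75 Bay-11 (8.94) and DG75 TPCK (8.93), and the neighbours that overlapped were the Raji treated groups and the DG75 treated groups. RGS2 ran from DG75 control (10.66) through DG75 TPCK (10.22), DG75 Bay-11 (10.13) and Raji TPCK (9.20) to Raji control (8.85) and Raji Bay-11 (8.77). Its DG75 treated groups overlapped, as did the neighbouring Raji groups. RGS16 ran from Raji control (8.80) through Raji TPCK (8.33), Raji Bay-11 (8.31), DG75 TPCK (7.55) and DG75 Bay-11 (7.53) to DG75 control (7.40), with no overlap between Raji control and its neighbour or between the lines. RGS19 ran from Raji Bay-11 (9.73) through Raji TPCK (9.52), Raji control (9.39), DG75 Bay-11 (8.81) and DG75 TPCK (8.63) to DG75 control (8.13), where the DG75 treated groups alone overlapped. For RGS13 the Raji groups (9.43 to 9.45) and DG75 control (9.31) overlapped. The mean was lower in DG75 Bay-11 (8.94), which did not overlap DG75 control, and in DG75 TPCK (8.41), which overlapped DG75 Bay-11. These treated DG75 groups reached up to 9.13 and 8.90, above the lowest Raji array at 8.78. For RGS14 the Bay-11 groups were highest, at 5.46 in Raji and 5.41 in DG75, and the remaining groups ran from 5.09 to 4.82. DG75 TPCK did not overlap DG75 Bay-11, the group above it, and the other neighbours overlapped.

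Across the 18 arrays the pattern of RGS1 was most like those of GCA (Pearson r = 0.984), SGK1 (0.982) and SRI (0.980). RGS2 was nearest to NNT (0.974), EFCAB11 (0.970) and METAP2 (0.970), and RGS16 to CYSTM1 (0.944), SLC2A5 (0.941) and BMP2K (0.941). RGS19 was nearest to SEMA4B (0.981), LRP8 (0.974) and RBM6 (0.972). RGS13 was nearest to UBE2V2 (0.926), NAP1L1 (0.916) and UQCRBP1 (0.890), and RGS14 to ANGEL1 (0.808), LPCAT4 (0.788) and ARFGEF1 (0.788). These are descriptions over arrays that share 2 lines, so a gene that differs between the lines correlates with any other that does.

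With each line's mean subtracted, RGS1 was nearest to SGK1 (0.862), EVI2A (0.855) and PRDM1 (0.848). SGK1, a kinase induced by serum and glucocorticoids, fell in all 4 treatment comparisons, by 0.82 ± 0.14 with Bay-11 in Raji on the log2 scale (limma, adjusted p = 0.00981) and by 0.95 with Bay-11 in DG75 (0.00268). RGS2 was then nearest to TIMM8A (0.930), HSPD1 (0.849) and ALG5 (0.838), and RGS16 to MYADM (0.833), CDCA4 (0.820) and WDR44 (0.813). RGS19 was nearest to SLC37A3 (0.952), TOR1B (0.945) and NBPF3 (0.942). RGS13 was nearest to FAM117B (0.920), YOD1 (0.917) and UBE2V2 (0.906), and RGS14 to POLR1B (0.828), ARFGEF1 (0.822) and ANGEL1 (0.819).

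Among the members themselves, RGS1 and RGS16 had r = 0.885 over the 18 arrays and 0.217 with line means subtracted. RGS1 and RGS2 had r = -0.839 over all arrays and 0.421 with line means subtracted. RGS16 and RGS2 had -0.915 and -0.454 on the same measures, and RGS19 and RGS16 had 0.858 and 0.368. RGS2 and RGS19 had -0.905 over all arrays and -0.553 with line means subtracted, and RGS1 and RGS19 had 0.731 and -0.500. The other 9 pairs had values between -0.388 and 0.524 over all arrays. With line means subtracted they ran from -0.583 for RGS1 and RGS14 to 0.538 for RGS14 and RGS19, where RGS14 was close to background.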

How the data were processed

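RNA of 18 samples, 3 in each of 6 groups set by the sample titles, was measured on bead arrays. Raw signals were deposited as log2 values for 49576 probes, per the file headers, and their values show no normalization between arrays. Beside each signal the authors deposited a detection p-value, per the file headers. Its 18 columns were tied to groups by name, and 0 went unused. Another deposited table, also log2, served as an alternative; values of its 9 Raji columns, and of 1 DG75 column (Bay-11), centre near 0, and the 8 other DG75 columns equal raw columns, so members were compared there only between columns of 1 scale. The processing software is not given in the sources used here, nor is a build.

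Signals were corrected by normexp with an offset of 16 and quantile normalized, probes detected (p under 0.01) on at least 3 arrays were kept (17652), and the brightest kept probe stood for a gene. Symbols came from GEO's platform annotation, in which 17109 probes had 1 symbol, 3 had several and 32464 probes of the raw table were unnamed. One linear model over the 6 groups was fitted with limma 3.58.1 (R 4.3.3), on 10697 genes, with 12 residual and 4.26 prior degrees of freedom and Benjamini-Hochberg adjustment over all genes; it was tested on simulated data. Figures used matplotlib 3.10.9. The number of arrays limits precision. No 2 arrays held identical values.

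The members and gene lists were chosen with earlier results of these data known. Named genes were all members, up to 3 called genes per list and comparison by size of change, the 3 most like genes per member, and SGK1 among benchmarks; 1 listed gene is not reported here. Replicate numbers exist in the deposited second table only. Same-numbered Raji TPCK and Bay-11 samples deviated together (r = 0.137, 0.124 and 0.232), a pairing that comes from the data and not the labels, and those of the other comparisons did not all exceed 0.1. Alternatives covered normalization, offset, filter, probe choice, moderation, arrays fitted and the second table.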

Additional observations from a re-analysis of the deposited data

How the results depend on the processing

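The difference between the untreated lines kept its 4 calls under each of the 10 alternatives run and each of the 6 omissions of an array, with RGS1 at -1.81 to -1.50, RGS16 at -1.40 to -0.94, RGS19 at -1.27 to -0.88 and RGS2 at 1.74 to 2.07 across the alternatives. After Bay-11 in Raji the count of 1 became 0 with median centring, with no normalization between arrays and with no filter on dim probes, was 2 in the deposited second table (RGS1 and RGS19, which was 0.56 ± 0.13 there, adjusted p = 0.0211) and 0 to 0 with 1 array left out. With the replicate number as a block in that table the count was 0 and RGS1 was -0.58 (adjusted p = 0.0668); those samples share only a number, with correlations of their deviations of 0.0683, -0.164 and -0.0184. For Raji TPCK against Raji Bay-11 the block changed no member's call. RGS14 has blank cells in the Raji columns of that table and was not measured there. After TPCK in Raji the count of 0 became 2 with no normalization (RGS2 and RGS19, with 5346 of 10697 genes called) and 1 without arrays 7 and 10 (RGS1). After Bay-11 in DG75 it was 0 to 1 with 1 array left out, RGS19 being called without array 12. The remaining counts stayed at 0 under the alternatives run, and the causes of these changes were not tested. Over all genes the count of calls after Bay-11 in Raji was 161 as reported, 35 with median centring, 427 with no normalization, 413 in a fit of these groups alone, 506 without arrays 7 and 10, 27 to 201 with 1 array left out, and 1627 of 8042 genes in the second table (1168 with the block). The second table was not run where the columns differ in scale, which leaves out DG75 Bay-11 and the comparisons of lines. For RGS14, whose signal was near background, any change in the dim range could not be measured.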

Other observations

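CXCR4, a chemokine receptor that RGS13 is known to restrain and a gene singled out after its values were seen, had 2 probes that disagreed on array 10. The brighter probe was not detected there, with a signal of 4.77 against a DG75 control mean of 10.62, and it was detected on all other arrays. The other probe was detected there, with a signal of 9.21 against a DG75 control mean of 8.999. On the same array RGS1 was 9.01, RGS13 was 8.74 and RGS19 was 9.37.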
